A study of Carica papaya with 15 samples.

Results

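Pulp of "Golden" papaya (Carica papaya) was compared between fruit treated with ethylene and sampled at 24 h (T24h) and fruit frozen at the start (C0h). The members are the 6 pulp libraries that the sample labels place in these groups, 3 T24h and 3 C0h, of the 15 libraries of the series. T24h fruit had been kept in a closed chamber with 100 ppm ethylene for 12 h and then for another 12 h in air. C0h fruit were taken at 0 h, on arrival in the laboratory some time after harvest, with neither gas nor further storage. Ethylene and 24 h of time thus differ together in this comparison and cannot be told apart. The other 9 libraries were T12h (ethylene for 12 h, 3 libraries) and the untreated C12h and C24h (3 libraries each). Letters A, B and C mark 3 harvests of pre-climacteric fruit from 1 producer, and each library came from pooled fruit, peeled and without seeds, so that pools and not single fruit are the replicates. Values given as a row of 3 are those of harvests A, B and C, in that order. In bulk pulp, fewer cells of a type and less RNA per cell cannot be told apart.

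Papaya is a climacteric fruit: ripening starts with a burst of respiration and of ethylene made by the fruit itself. Ethylene binds receptors in the endoplasmic reticulum that, when free of the gas, keep the kinase CTR1 active; binding lets EIN2 and the EIN3 family of transcription factors act on ripening genes. In ripening pulp, pectin and xyloglucan of the cell wall are loosened by enzymes such as polygalacturonase (PG), carotenoids accumulate in chromoplasts and scented volatiles are made. Gene symbols below were carried over from Arabidopsis thaliana by RefSeq, and the roles given are those known in Arabidopsis unless another plant is named.

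Whole reads were recovered from the steps in which the deposited values run. The 6 libraries held 9421350 to 12542678 reads (10979479, 11201433 and 10379269 in T24h A, B and C, against 12143661, 9421350 and 12542678 in C0h A, B and C). The step of T24h B, 1.006, lies close to 1, where steps are hard to tell from rounding, so its reads are less certain than those of the other 5 libraries. Values are counts normalized by the authors with DESeq2 size factors, called normalized counts. Their sums were 11270000 to 13280000 per T24h library and 8942200 to 9593070 per C0h library, so the deposited scaling does not give libraries equal totals. On the first principal component of all 15 libraries, which held 51.2% of the variance, T24h A, B and C stood at 76.6, 23.5 and 57.7, against -12.7, -57.6 and -74.6 for C0h A, B and C. T24h B and C0h A were thus the nearest libraries of the 2 groups. Untreated C24h B stood at 59.3, among the treated libraries and apart from C24h A (-42.3) and C24h C (-66.6). Replicate pairs within T24h and within C0h gave chi-square values of 15 to 64.3 per degree of freedom on their reads, well over the 1 of counting error alone.

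Of 15270 genes tested with limma on log2(normalized count + 1), 1240 rose (8.12%) and 1148 fell (7.52%) in T24h relative to C0h with adjusted p-values not above 0.05, 15.6% in all. "Rose" and "fell" mean this adjusted p, and fold changes are on the log2(value + 1) scale with their standard error (SE), which understates the change of low genes. With a log2 fold change above 1.5 in size as well, 845 genes (5.53%) were called, 413 higher in T24h (2.7%) and 432 lower (2.83%). Each of the 845 had the same sign in all 3 harvests, against 56.2% of all genes tested. T24h and C0h libraries did not overlap for 833 of the 845 (5.46% of the genes tested), whereas 39.4% of all genes tested, called or not, did not overlap. The 845 were chosen by the same difference between these libraries, so neither count is separate support for them. The median fold change of all genes was -0.02.

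**Figure D1:**
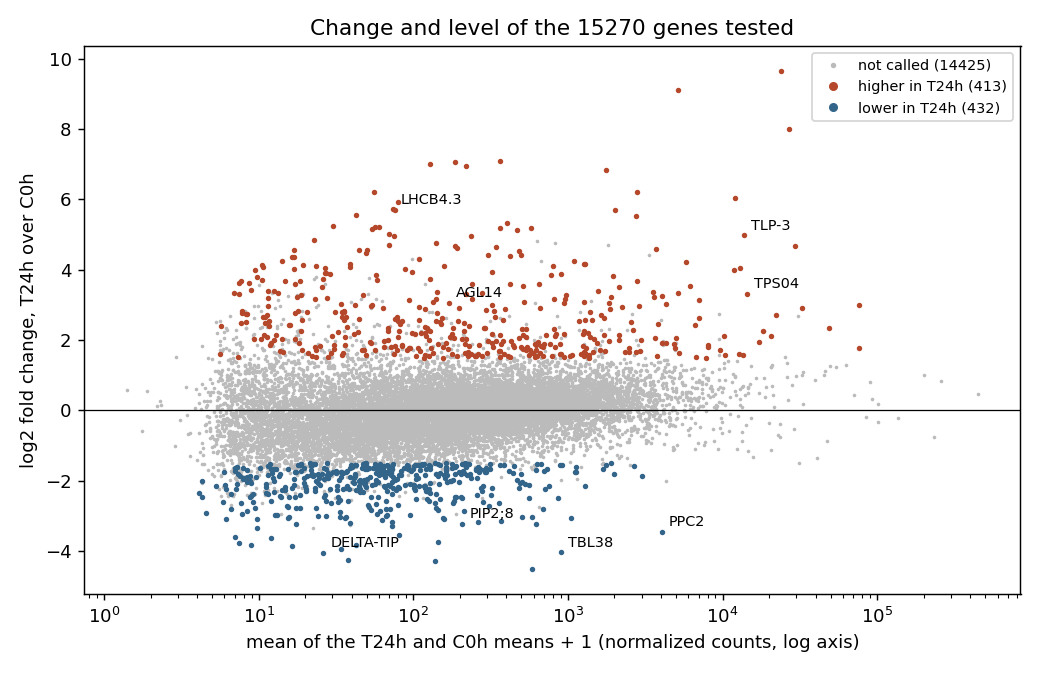
Each point is 1 of the 15270 genes tested, with the mean of the T24h and C0h means plus 1 on a log x axis (normalized counts) and the log2 fold change of T24h over C0h on the y axis. The 413 genes called higher in T24h reach 9.65, whereas the lowest of the 432 called lower is at -4.51.

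These calls rested on few libraries. Without T24h A 112 genes were called and without C0h B 264, and without C0h C, harvest A or harvest C no gene was called by limma (3643, 3313 and 3204 genes stayed at or under 0.05 before adjustment). Without T24h B 883 were called, without T24h C 665, without C0h A 936 and without harvest B 888. Every gene named below as risen or fallen lost its adjusted p without C0h C, harvest A or harvest C, and 17 of the 148 named at that threshold kept it without T24h A. None of the 845 calls changed sign in any of the 23 alternatives run.

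**Figure D2:**
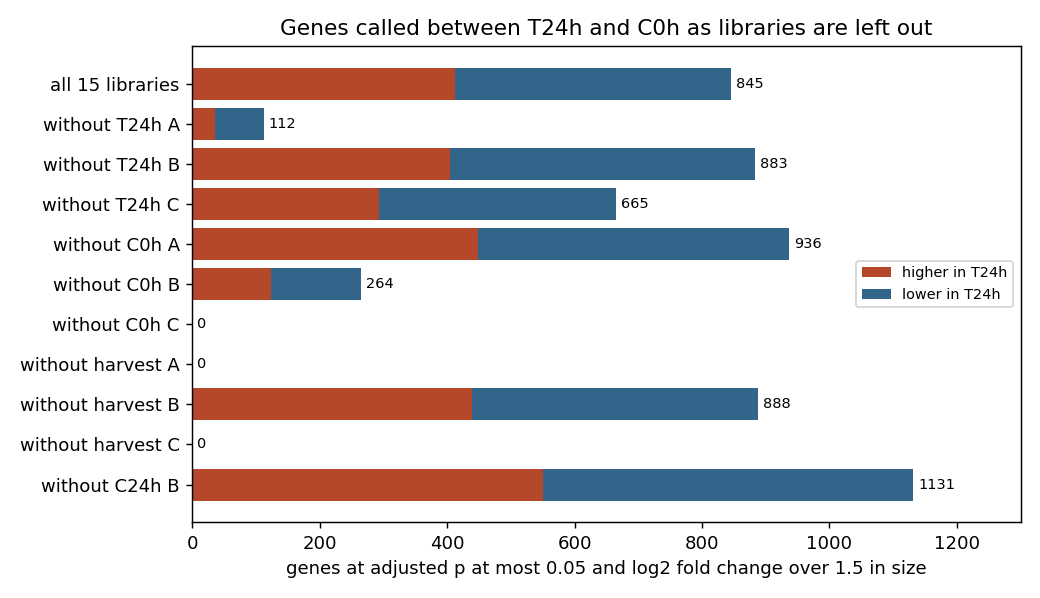
Bars give the number of genes called between T24h and C0h (x axis), split into those higher and those lower in T24h, for all 15 libraries and with 1 library or 1 harvest left out (y axis). The count falls to 112 without T24h A and to 0 without C0h C, harvest A or harvest C, against 845 with all libraries.

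The largest rises included genes without a symbol whose C0h levels were far below their T24h levels and differed widely between harvests. LOC110825971 had 83630, 24390 and 35370 normalized counts in T24h, against 510, 32.6 and 7.13 in C0h (log2 fold change 9.65 ± 2.05 SE, limma adjusted p = 0.0141). LOC110810472 had 15090, 2079 and 13500 normalized counts in T24h, against 68.7, 14.3 and 1.43 in C0h (log2 fold change 9.1 ± 2.1 SE, limma adjusted p = 0.0181). LOC110807004 had 99920, 24980 and 36390 normalized counts in T24h, against 580.2, 354 and 24.9 in C0h (log2 fold change 8.01 ± 1.92 SE, limma adjusted p = 0.0198). In the first pair of these genes C0h A held more than C0h B and C0h C, and the lowest T24h library was far above it. Among genes with a symbol, LHCB4.3, which encodes a minor antenna protein of photosystem II, had the largest fold with 277, 93.6 and 63.4 normalized counts in T24h, against 3.82, 0 and 1.43 in C0h (log2 fold change 5.71 ± 1.1 SE, limma adjusted p = 0.0116). T24h A held the highest of these levels, and the groups did not overlap.

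TLP-3, a thaumatin-like protein of the family to which sweet-tasting thaumatin and many defence proteins belong, had 27140, 14340 and 37440 normalized counts in T24h, against 2128, 699.5 and 308 in C0h (log2 fold change 4.98 ± 1.28 SE, limma adjusted p = 0.0241). The groups did not overlap, and C0h A was the highest C0h library. PHO2, a ubiquitin-conjugating enzyme that limits phosphate uptake, had 4601, 7681 and 3209 normalized counts in T24h, against 781, 322 and 219.6 in C0h (log2 fold change 3.66 ± 0.72 SE, limma adjusted p = 0.0116). ABCG2, a membrane transporter of the ABC family, had 20380, 3399 and 9060 normalized counts in T24h, against 1623, 308 and 194 in C0h (log2 fold change 4.22 ± 1.06 SE, limma adjusted p = 0.0226). For ABCG2 the lowest T24h library, T24h B, stood above the highest C0h library, C0h A. OPT1, an oligopeptide transporter, rose by 4.42 ± 1.14 SE (limma adjusted p = 0.0242), RNS3, a ribonuclease of the T2 family, by 4.46 ± 1.2 SE (limma adjusted p = 0.0271), and YLS9, named for its rise in yellowing leaves, by 3.84 ± 0.92 SE (limma adjusted p = 0.0196).

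LAC7, a laccase that oxidizes phenolics, had 64.1, 16.1 and 2.31 normalized counts in T24h, against 0.763, 0 and 0 in C0h. Its C0h libraries held 1 read in all, so the ratio of 97.6 between the groups has a 95% counting interval of 17.0 to 3910. LOC110822698 had 3 reads in C0h and 220 in T24h, a ratio of 101 with a counting interval of 34.0 to 493. These exact (Clopper-Pearson) intervals cover counting error only.

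The largest falls were smaller in size than the largest rises. LOC110811123 had 9.68, 99.6 and 60.0 normalized counts in T24h, against 360.3, 1323 and 1636 in C0h (log2 fold change -4.51 ± 0.88 SE, limma adjusted p = 0.0116), with harvest A the lowest in both groups. LOC110820945 and LOC110807886 fell by 4.27 ± 0.67 SE (limma adjusted p = 0.0104) and 4.24 ± 0.84 SE (limma adjusted p = 0.0118). DELTA-TIP, an aquaporin of the tonoplast, had the largest fall among genes with a symbol that passed the test, with 2.42, 0 and 4.61 normalized counts in T24h, against 55, 66.2 and 22.1 in C0h (log2 fold change -4.05 ± 0.94 SE, limma adjusted p = 0.0188). PPC2, a phosphoenolpyruvate carboxylase that feeds carbon into organic acids, had 410.2, 732 and 989.7 normalized counts in T24h, against 6296, 8505 and 7299 in C0h (log2 fold change -3.45 ± 0.55 SE, limma adjusted p = 0.0104). PPC2 kept its adjusted p without T24h A and without C0h B (0.0483 and 0.0425), and its groups lay far apart. SRS6, a SHI-related transcription factor of organ development, had 25.4, 64.4 and 61.1 normalized counts in T24h, against 229, 593 and 583 in C0h (log2 fold change -3.18 ± 0.63 SE, limma adjusted p = 0.0118). PUM12, a Pumilio RNA-binding protein, fell by 3.82 ± 1.0 SE (limma adjusted p = 0.0252).

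FUC1, an alpha-fucosidase, was at 0 in T24h A, B and C, against 4.58, 23.4 and 19.2 in C0h A, B and C. The 56 reads of C0h make it at least 4.67-fold lower in T24h, with a floor of 3 counts per library. TBL35, a TRICHOME BIREFRINGENCE-LIKE protein of the family that acetylates wall polymers, was also at 0 in T24h A, B and C, against 10.7, 17.3 and 10.7 in C0h, and so at least 3.83-fold lower by the same floor. Both passed the test (limma adjusted p = 0.011 and 0.0104) and kept it without T24h A. LOC110823309 was at 0 in T24h as well, against 6.11, 12.2 and 17.8 in C0h, and so at least 3.58-fold lower. Of the other genes with the lowest adjusted p, LOC110821644 and LOC110808445 rose by 1.64 ± 0.24 SE (limma adjusted p = 0.0104) and 1.52 ± 0.23 SE (limma adjusted p = 0.0104), and LOC110807848 and LOC110825401 fell by 2.21 ± 0.31 SE (limma adjusted p = 0.0104) and 1.78 ± 0.26 SE (limma adjusted p = 0.0104).

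By difference of mean normalized counts, the genes that gained most had no symbol. LOC110810572 had 173300, 118500 and 113600 normalized counts in T24h, against 24730, 16670 and 11050 in C0h (log2 fold change 3.0 ± 0.72 SE, limma adjusted p = 0.0198). LOC110819991 had 153900, 124700 and 77710 normalized counts in T24h, against 29690, 39890 and 31420 in C0h (log2 fold change 1.77 ± 0.34 SE, limma adjusted p = 0.0116), and LOC110808078 rose by 2.33 ± 0.51 SE (limma adjusted p = 0.0152). Genes that rose held 26.2%, 22.1% and 21.3% of all normalized counts in T24h A, B and C, against 11.6%, 10.5% and 9.84% in C0h A, B and C. Genes that fell held 1.87%, 2.61% and 2.66% in T24h, against 5.80%, 6.89% and 7.60% in C0h. These shares describe genes chosen by the same contrast and test nothing. Among genes called lower, those with the largest loss of mean normalized counts included PPC2, FAC1, an AMP deaminase, with 594, 1948 and 1407 normalized counts in T24h, against 2403, 4979 and 6630 in C0h (log2 fold change -1.87 ± 0.46 SE, limma adjusted p = 0.0216) and NINJA, an adaptor that represses jasmonate responses (log2 fold change -1.5 ± 0.29 SE, limma adjusted p = 0.0115), beside LOC110808775 (log2 fold change -1.57 ± 0.28 SE, limma adjusted p = 0.0105) and LOC110815279 (log2 fold change -1.82 ± 0.49 SE, limma adjusted p = 0.0282).

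The scaling matters for small changes. With every library set to the same total, the median of all genes moved to -0.40 and the calls to 278 higher and 989 lower, against 413 and 432 with the deposited scaling. List medians shifted with it, and a list or gene close to 0 can change sign with the scaling. With equal totals 615 of the 15270 genes tested rose and 2875 fell, against 1240 and 1148 with the deposited scaling. The list counts given below for equal totals stand beside these numbers, and not beside the 8.12% and 7.52% of the deposited scaling. Some genes named here as risen or fallen did not pass under another setting. With equal totals these were A/N-INVC, ATG18B, JAZ8, LOC110808384, LOC110816092, MK, MUR4, NAC084, PYL7, RCAR3, RPN10, RPN8A, RPT5A, WRKY15 and WRKY21. With quantile normalization they were A/N-INVC, APX2, BCCP2, CAC1, CCR1, CKX7, DHAR3, ELF4, HAB1, JAZ8, LOC110808377, LOC110817465, LOC110823232, LOC110826274, LOX6, MUR4, PYL7, RPN10, RPN8A, RPT5A, SPY and TT5. With T24h and C0h alone in the fit they were A/N-INVC, CCR1, CER10, DHAR3, IAR1, LOC110807938, LOC110808377, LOC110817465, LOC110819800, LOC110823186, LOX6, MUR4, NAC036, PEX3-1, PSBO1, RCAR3, RPN10, RPN8A, SPY, TT5 and XYL1. BCCP2, LOC110826274 and LOX6 did not pass with edgeR on the whole reads of all libraries.

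**Figure D3:**
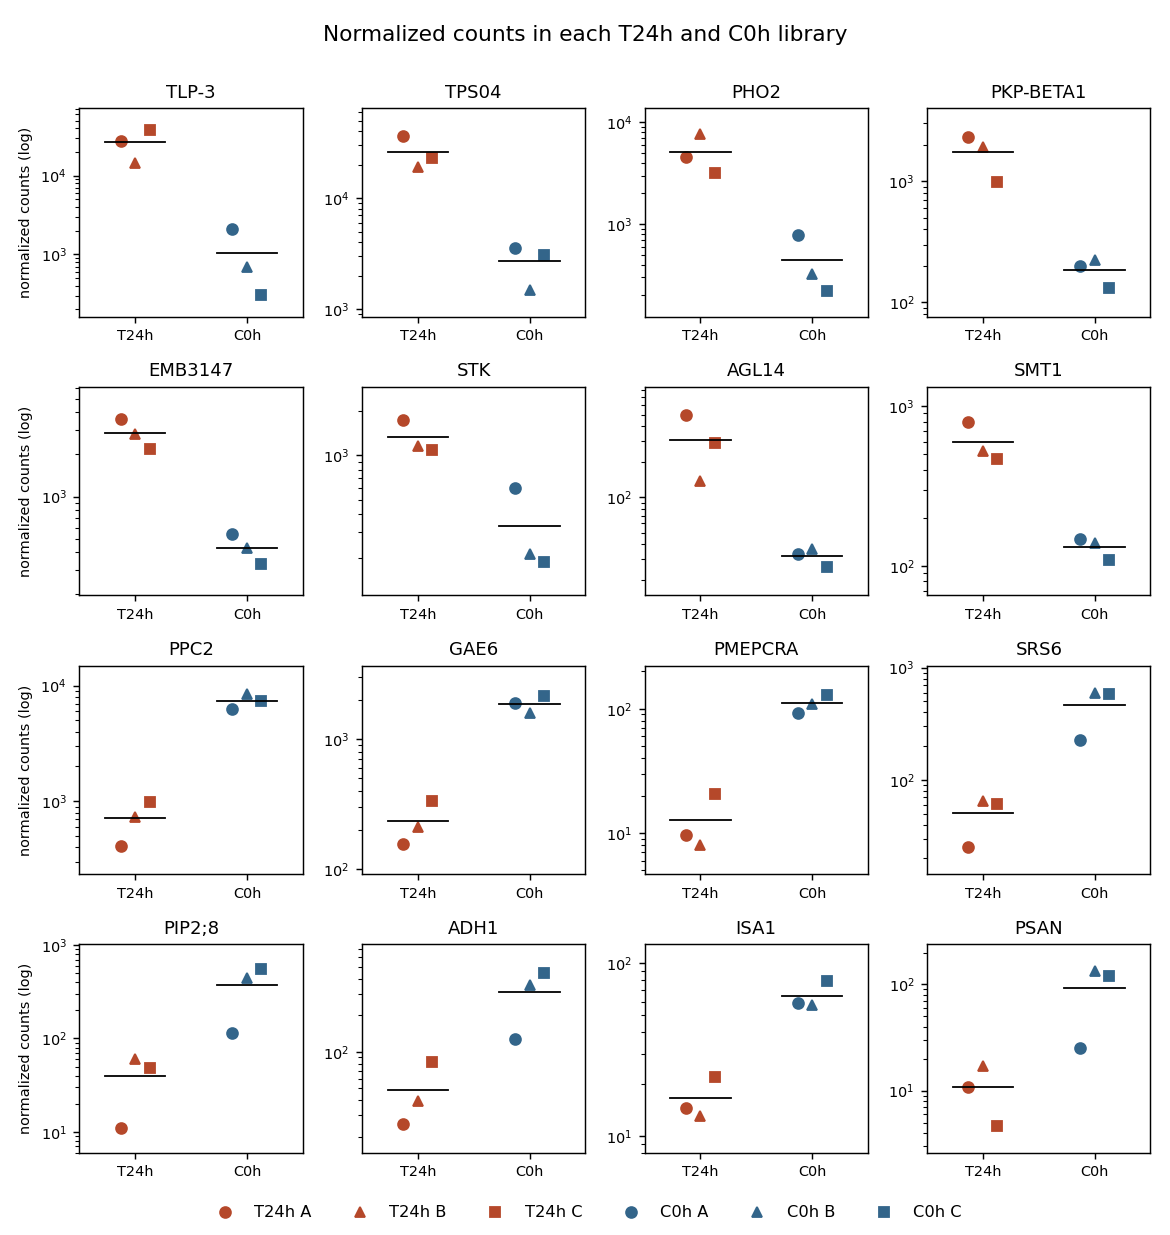
Each panel plots 1 gene, with normalized counts on a log y axis in the 3 T24h libraries (left) and the 3 C0h libraries (right); symbols mark harvests and black lines the group means. In all 16 panels the T24h and C0h libraries do not overlap, as in PPC2, with 410.2 to 989.7 in T24h and 6296 to 8505 in C0h.

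Plastid fatty acid synthesis builds the acyl chains of membrane lipids from acetyl-CoA, by acetyl-CoA carboxylase, acyl carrier proteins and a cycle of condensing and reducing enzymes. It was the list with the highest share of members that rose: 11 of its 13 tested genes rose (84.6%, against 8.12% of all genes tested) and none fell, with a median of 1.57 against -0.02 over all genes. With equal totals 11 still rose, with a median of 1.18. None passed the adjusted p without T24h A, C0h C, harvest A or harvest C, where 9 to 11 had an unadjusted p of at most 0.05 and the median was 1.42 to 1.64 with all 13 values above 0.

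All listed subunits of the carboxylase rose. CAC2, its biotin carboxylase, had 1808, 2063 and 984 normalized counts in T24h, against 538, 495 and 524 in C0h (log2 fold change 1.57 ± 0.30 SE, limma adjusted p = 0.0116). CAC3, the alpha subunit of its carboxyltransferase, had 1858, 1932 and 1025 normalized counts in T24h, against 670.3, 548 and 594 in C0h (log2 fold change 1.36 ± 0.27 SE, limma adjusted p = 0.0116), and CAC1, a biotin carboxyl carrier, rose by 1.4 ± 0.41 SE (limma adjusted p = 0.0364). In CAC2 and CAC3 the 3 C0h libraries lay close together and T24h C was the lowest T24h library. BCCP2, the other carrier, had 18.1, 17.1 and 18.5 normalized counts in T24h, against 6.11, 1.02 and 0.713 in C0h (log2 fold change 2.7 ± 0.83 SE, limma adjusted p = 0.0428), a low gene whose C0h libraries held few reads.

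EMB3147, which transfers malonyl groups to acyl carrier protein, had 3590, 2796 and 2193 normalized counts in T24h, against 537, 427 and 332 in C0h (log2 fold change 2.72 ± 0.55 SE, limma adjusted p = 0.0124), the largest fold of the list. The carrier proteins ACP4 and ACP1 rose by 2.56 ± 0.78 SE (limma adjusted p = 0.0428) and 1.16 ± 0.28 SE (limma adjusted p = 0.0209). Of the cycle enzymes, the condensing enzyme KASI had 2284, 1535 and 1679 normalized counts in T24h, against 763, 579 and 478 in C0h (log2 fold change 1.6 ± 0.40 SE, limma adjusted p = 0.0222). MOD1, the enoyl reductase that ends the cycle, had 4735, 3622 and 2385 normalized counts in T24h, against 1073, 1072 and 1154 in C0h (log2 fold change 1.65 ± 0.32 SE, limma adjusted p = 0.0116). The C0h values of MOD1 lay close together, and those of T24h spread more widely.

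SSI2, a desaturase that makes oleoyl chains, had 10320, 7136 and 5622 normalized counts in T24h, against 2406, 1864 and 1820 in C0h (log2 fold change 1.89 ± 0.38 SE, limma adjusted p = 0.0119). FAD6, a plastid desaturase acting on membrane lipids, rose by 1.23 ± 0.36 SE (limma adjusted p = 0.0354). The 2 members that did not pass were FAD5, another plastid desaturase, with 63610, 62650 and 104100 normalized counts in T24h, against 37090, 29460 and 29050 in C0h (log2 fold change 1.24 ± 0.57 SE, limma adjusted p = 0.139), and FATB, the thioesterase that releases saturated chains (log2 fold change 0.31 ± 0.22 SE, limma adjusted p = 0.338). FAD5 was higher in each T24h than in each C0h library, and FATB overlapped between the groups.

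PKP-BETA1, a subunit of the plastid pyruvate kinase that supplies pyruvate for this pathway, had 2308, 1925 and 991 normalized counts in T24h, against 202, 224 and 132 in C0h (log2 fold change 3.17 ± 0.67 SE, limma adjusted p = 0.0137). ACLB-1, of the cytosolic ATP-citrate lyase that makes acetyl-CoA, rose by 1.91 ± 0.47 SE (limma adjusted p = 0.0216), and GAPCP-2, a plastid glyceraldehyde phosphate dehydrogenase, by 1.58 ± 0.46 SE (limma adjusted p = 0.037). They belong to a list of respiration and central carbon genes in which 4 of 27 rose (14.8%) and 3 fell (11.1%), against 8.12% and 7.52% of all genes tested. The median of this list was 0.23 (-0.13 with equal totals). Falling members were PPC2, PPC4 (log2 fold change -2.04 ± 0.57 SE, limma adjusted p = 0.0317) and NDB1, an external NADPH dehydrogenase of mitochondria (log2 fold change -2.2 ± 0.54 SE, limma adjusted p = 0.0216).

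Fatty acids are broken down in peroxisomes, where 7 of 27 listed genes rose (25.9%) and 1 fell (3.70%), against 8.12% and 7.52% of all genes tested. The median of this list was 0.17 (-0.22 with equal totals, where 3 rose and 2 fell, and none passed without T24h A or C0h B). MLS, malate synthase of the glyoxylate cycle, had 157, 38.2 and 129 normalized counts in T24h, against 10.7, 4.07 and 4.99 in C0h (log2 fold change 3.72 ± 0.94 SE, limma adjusted p = 0.0227). PEX19-1, a receptor for peroxisomal membrane proteins, had 9900, 5666 and 7214 normalized counts in T24h, against 2655, 2008 and 1903 in C0h (log2 fold change 1.77 ± 0.38 SE, limma adjusted p = 0.0141), and ACX2, an acyl-CoA oxidase, rose by 1.77 ± 0.51 SE (limma adjusted p = 0.0346). The member that fell was PEX3-1, the docking partner of PEX19 (log2 fold change -1.17 ± 0.34 SE, limma adjusted p = 0.0368), whose adjusted p was lost with the harvest as a block.

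**Figure D4:**
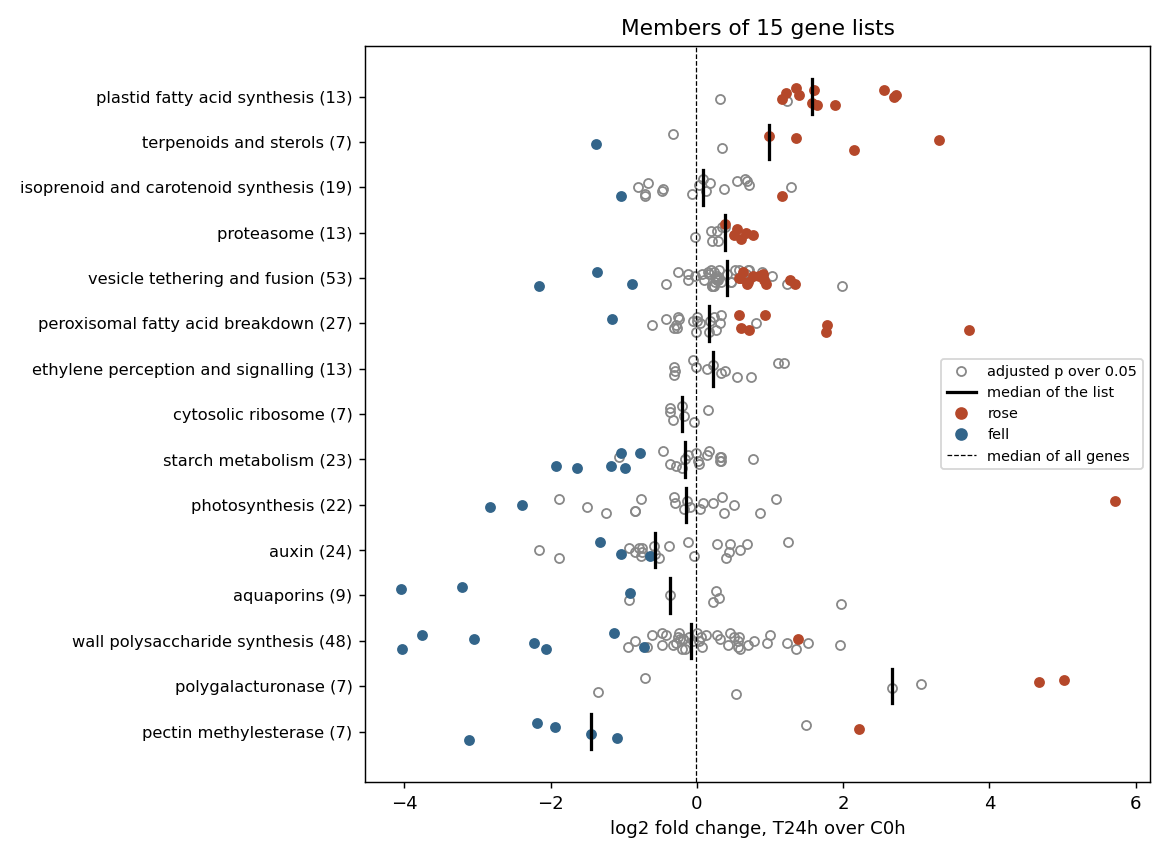
Each row is a gene list with the number of its tested members; points give the log2 fold change of T24h over C0h (x axis), filled where the gene rose or fell, and thick lines give the list median. All 13 fatty acid synthesis genes lie right of the dashed line, the median of all genes at -0.02, whereas the 13 genes of ethylene perception lie on both sides of it with none filled.

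Sterol and terpene genes differed strongly among themselves. Of 7 listed genes 4 rose (57.1%) and 1 fell (14.3%), against 8.12% and 7.52% of all genes tested. The median of this list was 0.99 (0.60 with equal totals, where 3 rose). TPS04, a terpene synthase, had 36610, 19040 and 22940 normalized counts in T24h, against 3545, 1501 and 3041 in C0h (log2 fold change 3.32 ± 0.79 SE, limma adjusted p = 0.0194). Its lowest T24h library held several times the level of any C0h library. SMT1, the methyltransferase that starts the branch to plant sterols, had 794, 526 and 469.5 normalized counts in T24h, against 147, 138 and 108 in C0h (log2 fold change 2.15 ± 0.45 SE, limma adjusted p = 0.0134). HMG2, an HMG-CoA reductase of the mevalonate pathway, had 2665, 2666 and 2384 normalized counts in T24h, against 1105, 999.9 and 908 in C0h (log2 fold change 1.36 ± 0.28 SE, limma adjusted p = 0.0132), and MK, mevalonate kinase, rose by 0.99 ± 0.27 SE (limma adjusted p = 0.0275). FPS1, a farnesyl diphosphate synthase, fell (log2 fold change -1.38 ± 0.35 SE, limma adjusted p = 0.0233), and HMG1, the other HMG-CoA reductase, did not pass (log2 fold change 0.34 ± 0.26 SE, limma adjusted p = 0.381).

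Of 19 genes listed for plastid isoprenoid and carotenoid synthesis, 1 rose and 1 fell (5.26% each, against 8.12% and 7.52% of all genes tested). This list also holds CCD1, CCD8 and NCED3, which cleave carotenoids, and NPQ1 and ABA1, which convert xanthophylls. Its counts are thus not those of synthesis alone. HDR, the last enzyme of the plastid isoprenoid pathway, had 14770, 11360 and 13290 normalized counts in T24h, against 6594, 5951 and 5021 in C0h (log2 fold change 1.17 ± 0.28 SE, limma adjusted p = 0.0193). CRTISO, a carotenoid isomerase, had 52, 55.3 and 47.3 normalized counts in T24h, against 74, 115 and 141 in C0h (log2 fold change -1.03 ± 0.28 SE, limma adjusted p = 0.0293). PSY, phytoene synthase, which starts carotenoid synthesis, had 626, 523 and 742 normalized counts in T24h, against 908, 852 and 839.8 in C0h and did not pass (log2 fold change -0.47 ± 0.23 SE, limma adjusted p = 0.163). PSY was lower in each T24h than in each C0h library. ZDS and PDS3, the desaturases that follow, did not pass either, at log2 fold changes of 0.66 and 0.37, and LYC, a lycopene cyclase, was at -0.67. With equal totals 1 of the 19 rose and 4 fell, where 615 of the 15270 genes tested rose and 2875 fell.

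Among antioxidants, 3 of 13 ascorbate genes rose and 2 fell (23.1% and 15.4%, against 8.12% and 7.52% of all genes tested), with a median of -0.40. APX2, an ascorbate peroxidase, had 14190, 13590 and 19130 normalized counts in T24h, against 7531, 7538 and 7727 in C0h (log2 fold change 1.02 ± 0.27 SE, limma adjusted p = 0.0253), GME, which makes GDP-galactose for ascorbate, rose by 1.01 ± 0.26 SE (limma adjusted p = 0.0252), and MDAR4, which regenerates ascorbate, by 0.98 ± 0.21 SE (limma adjusted p = 0.015). DHAR3, a dehydroascorbate reductase, fell by 1.45 ± 0.39 SE (limma adjusted p = 0.0275), and GLDH, the last enzyme of ascorbate synthesis, by 0.61 ± 0.17 SE (limma adjusted p = 0.0293). With equal totals 3 rose and 6 fell, at a median of -0.79. Of 5 genes listed for tocopherol and plastoquinone 1 fell (20.0%). The 5 include PSY, which starts carotenoid synthesis, and GGR, both also counted in the carotenoid list above. The member that fell was HPT1, the prenyltransferase that commits to tocopherol, with 848, 1158 and 2339 normalized counts in T24h, against 3090, 3174 and 3902 in C0h (log2 fold change -1.35 ± 0.38 SE, limma adjusted p = 0.0311). T24h C came nearest to C0h. With equal totals 3 of the 5 fell.

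Of 11 ethylene synthesis genes 1 rose (9.09%, against 8.12% of all genes tested). ACC oxidase, the enzyme that releases ethylene, is not among them: the symbol ACO1 is also used for an aconitase and was left out of the list. ACS12, which resembles ACC synthases but is known in Arabidopsis as an aminotransferase without that activity, had 928, 1121 and 856 normalized counts in T24h, against 286, 272 and 237 in C0h (log2 fold change 1.86 ± 0.40 SE, limma adjusted p = 0.015). SAM-2, an S-adenosylmethionine synthetase that makes the substrate of the pathway, had 350100, 232900 and 221500 normalized counts in T24h, against 149700, 130700 and 115100 in C0h and did not pass (log2 fold change 1.0 ± 0.42 SE, limma adjusted p = 0.108), although the groups did not overlap. MTO3, another such synthetase, had 2950, 3218 and 7093 normalized counts in T24h, against 1763, 861 and 694 in C0h (log2 fold change 2.0 ± 0.67 SE, limma adjusted p = 0.0578). ACS6, an ACC synthase, had 174, 352 and 314 normalized counts in T24h, against 463, 409 and 346 in C0h, with overlap between the groups (log2 fold change -0.59 ± 0.35 SE, limma adjusted p = 0.25).

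None of 13 genes of ethylene perception and signalling passed the test, at a median of 0.22 (-0.16 with equal totals), and by limma 1 of them, CTR1, was under 0.05 before adjustment. ERS1, a receptor, had 11930, 1567 and 5813 normalized counts in T24h, against 5763, 2333 and 814 in C0h, with wide overlap between the groups (log2 fold change 1.1 ± 0.78 SE, limma adjusted p = 0.327). The log2 fold changes were 0.39 for ETR1 and 0.74 for EIN4, both receptors, 0.55 for CTR1 and -0.02 for EIN2. EBF1, which marks EIN3 proteins for breakdown, was at -0.05. None of 7 AP2/ERF transcription factors with a symbol passed, at log2 fold changes of -0.93 to 1.13. The highest was TOE3 (log2 fold change 1.13 ± 0.40 SE, limma adjusted p = 0.0655), the 1 member with an unadjusted p of at most 0.05.

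MADS-box proteins specify floral and fruit identity, and 2 of 10 rose with none falling (20.0%, against 8.12% of all genes tested), at a median of 0.05. With equal totals 2 rose and 1 fell at a median of -0.34, so the sign of this median depends on the scaling. AGL14, known as a regulator in roots and meristems, had 491, 137 and 289.5 normalized counts in T24h, against 32.8, 36.7 and 25.7 in C0h (log2 fold change 3.06 ± 0.65 SE, limma adjusted p = 0.0142). STK, an ovule identity gene, had 1742, 1154 and 1096 normalized counts in T24h, against 596, 212 and 187 in C0h (log2 fold change 2.18 ± 0.52 SE, limma adjusted p = 0.0198). SHP1, its close relative, had 5004, 5305 and 5580 normalized counts in T24h, against 3988, 3608 and 2860 in C0h and did not pass (log2 fold change 0.62 ± 0.22 SE, limma adjusted p = 0.0704), though its groups did not overlap, and SEP3, a partner in MADS complexes, was at -0.02. Of 10 NAC genes 2 rose and 1 fell (1 and 2 with equal totals), with 20.0% rising and a median of 0.69 (0.30 with equal totals): NAC036 with 33.9, 12.1 and 48.4 normalized counts in T24h, against 6.87, 7.13 and 0.713 in C0h (log2 fold change 2.56 ± 0.70 SE, limma adjusted p = 0.0289), NAC084 (log2 fold change 1.57 ± 0.45 SE, limma adjusted p = 0.0346) and, falling, SMB, known from the root cap (log2 fold change -1.01 ± 0.21 SE, limma adjusted p = 0.0126). Of 18 WRKY genes 2 rose (11.1%) at a median of 0.30, whereas with equal totals none rose and 1 fell, at a median of -0.07. The 2 risers were WRKY21 (log2 fold change 0.83 ± 0.15 SE, limma adjusted p = 0.0107), and WRKY15 (log2 fold change 1.68 ± 0.49 SE, limma adjusted p = 0.0354), which did not pass with the harvest as a block.

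The cell wall families below are the subset of the study's wall genes whose gene number paired with 1 gene of the table. The study chose them for differential expression in these libraries, so their counts are not independent evidence of direction. Of 7 PG genes, which cut the pectin backbone, 2 rose (28.6%, against 8.12% of all genes tested). LOC110826274 had 101400, 18300 and 47020 normalized counts in T24h, against 8320, 2123 and 295 in C0h (log2 fold change 4.67 ± 1.5 SE, limma adjusted p = 0.0491), just inside the threshold. LOC110809302, called PG3 in the study, had 289, 49.3 and 66.9 normalized counts in T24h, against 5.34, 0 and 3.56 in C0h (log2 fold change 5.02 ± 1.16 SE, limma adjusted p = 0.0181). LOC110813488, called PG2, had 24.2, 0 and 9.23 normalized counts in T24h, against 0, 0 and 0 in C0h and did not pass (limma adjusted p = 0.0898). Its 28 T24h reads against none make a ratio of group means of at least 4.47 by the floor of 3 counts per library. T24h B was at 0 like the C0h libraries, so this bound does not hold within harvest B. LOC110811267 had 2005, 646 and 346 normalized counts in T24h, against 588, 14.3 and 84.8 in C0h, with C0h A above T24h C (log2 fold change 3.06 ± 1.29 SE, limma adjusted p = 0.111). The other 3, LOC110807205, LOC110821988 and LOC110814146, did not pass, at log2 fold changes of 0.54, -0.71 and -1.35.

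Pectin methylesterases remove methyl groups from pectin, and 5 of 7 fell with 1 rising (71.4% and 14.3%, against 7.52% and 8.12% of all genes tested). PMEPCRA had 9.68, 8.05 and 20.8 normalized counts in T24h, against 93.1, 110 and 129 in C0h (log2 fold change -3.11 ± 0.55 SE, limma adjusted p = 0.0104), and kept its adjusted p without T24h A and without C0h B. PME31 had 64.1, 201 and 266 normalized counts in T24h, against 326, 967 and 1055 in C0h (log2 fold change -2.19 ± 0.55 SE, limma adjusted p = 0.0226), PME1 398, 746 and 765 normalized counts in T24h, against 1056, 1408 and 1475 in C0h (log2 fold change -1.09 ± 0.31 SE, limma adjusted p = 0.0331). PE11 and LOC110821415 fell by 1.45 ± 0.35 SE (limma adjusted p = 0.0198) and 1.93 ± 0.50 SE (limma adjusted p = 0.0249), and LOC110808164 did not pass, at a log2 fold change of 1.5. The riser was LOC110808384 with 275, 170 and 142 normalized counts in T24h, against 45, 27.5 and 50.6 in C0h (log2 fold change 2.21 ± 0.69 SE, limma adjusted p = 0.0446), whose adjusted p was lost with the harvest as a block. Of 8 inhibitors of these enzymes 1 rose, LOC110823299 (log2 fold change 2.14 ± 0.54 SE, limma adjusted p = 0.0234), and 2 fell, LOC110808377 by 1.81 ± 0.49 SE (limma adjusted p = 0.0272) and LOC110823232 by 3.03 ± 0.97 SE (limma adjusted p = 0.0485), the last not with the harvest as a block. The median of the 8 was 1.72 (1.42 with equal totals), with 5 above 0 and 3 below.

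Beside the wall family counts that follow, 8.12% of all genes tested rose and 7.52% fell. Of 3 pectate lyases 1 fell (33.3%), LOC110819800, with 3 T24h reads and 34 C0h reads (limma adjusted p = 0.0403). LOC110822705 and LOC110813995, called PL1 in the study, did not pass, at log2 fold changes of 0.90 and -1.38. For LOC110819800 the ratio of C0h to T24h was 8.24, with a 95% counting interval of 2.59 to 42.0, and its adjusted p was lost with the harvest as a block. Of 2 rhamnogalacturonate lyases, which cut the branched pectin RG-I, LOC110825605 had 116, 14.1 and 13.8 normalized counts in T24h, against 5.34, 0 and 0.713 in C0h (log2 fold change 3.75 ± 0.88 SE, limma adjusted p = 0.0188) and LOC110825606 had 846, 519 and 514 normalized counts in T24h, against 386, 239 and 200.3 in C0h without passing (log2 fold change 1.2 ± 0.52 SE, limma adjusted p = 0.118). Of 7 xyloglucan endotransglucosylases/hydrolases, which cut and rejoin xyloglucan, 3 rose (42.9%). XTH30 had 8883, 2816 and 5889 normalized counts in T24h, against 2489, 1146 and 696 in C0h (log2 fold change 2.07 ± 0.59 SE, limma adjusted p = 0.0341). The others that rose were LOC110826405 (log2 fold change 3.91 ± 0.92 SE, limma adjusted p = 0.019) and LOC110826410 (log2 fold change 2.94 ± 0.63 SE, limma adjusted p = 0.0145). Of 6 cellulases 3 rose, LOC110822284 with 85.9, 97.6 and 175 normalized counts in T24h, against 27.5, 37.7 and 29.2 in C0h (log2 fold change 1.83 ± 0.38 SE, limma adjusted p = 0.0132) and a pair, LOC110817068 and LOC110817069, with 1 C0h read each. Their ratios of T24h to C0h were 67.4 and 46.7, with counting intervals of 11.5 to 2710 and 7.84 to 1900, and LOC110817069 did not pass with the harvest as a block. Of 3 beta-galactosidases 1 rose, BGAL10, by 2.04 ± 0.49 SE (limma adjusted p = 0.0202), and none of 4 expansins passed. Another beta-galactosidase, BGAL8, and an endoglucanase, GH9C2, were not among the paired genes and fell. Of 8 arabinogalactan proteins 2 rose, LOC110823186 by 2.09 ± 0.65 SE (limma adjusted p = 0.0435) and LOC110816092 by 1.4 ± 0.44 SE (limma adjusted p = 0.0461), the last not with the harvest as a block. Of 5 cellulose synthases 2 fell, LOC110817890 by 2.82 ± 0.77 SE (limma adjusted p = 0.0289) and LOC110817465 by 1.71 ± 0.53 SE (limma adjusted p = 0.0446). The 1 member with a value above 0, IRX3, did not pass, at a log2 fold change of 4.69, and is given below with vascular genes. The 5 genes summed to 5718, 2331 and 5359 normalized counts in T24h, against 1824, 1808 and 1858 in C0h. Of 3 xyloglucan galactosyltransferases 1 rose (33.3%), LOC110807938, with 22 T24h reads and 3 C0h reads, a ratio of 10.1 with a counting interval of 3.03 to 52.6 (limma adjusted p = 0.047). T24h B lay below C0h A, and the gene did not pass with the harvest as a block. LOC110817097, an alpha-galactosidase called AGAL3 in the study, had 119.8, 142 and 405 normalized counts in T24h, against 650.4, 826 and 1027 in C0h (log2 fold change -2.1 ± 0.42 SE, limma adjusted p = 0.0118).

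Of 48 genes that build wall polysaccharides, 7 fell (14.6%, against 7.52% of all genes tested) and 1 rose, MUR4, an epimerase that makes UDP-arabinose (log2 fold change 1.39 ± 0.41 SE, limma adjusted p = 0.0373). With equal totals 11 fell and none rose, where 2875 of the 15270 genes tested fell and 615 rose. GAE6, an epimerase that makes the galacturonate donor of pectin, had 157, 213 and 334 normalized counts in T24h, against 1881, 1590 and 2131 in C0h (log2 fold change -3.04 ± 0.61 SE, limma adjusted p = 0.0124). TBL38, of the acetylating family of TBL35, had 38.7, 106 and 115 normalized counts in T24h, against 369.5, 2367 and 2423 in C0h (log2 fold change -4.03 ± 0.87 SE, limma adjusted p = 0.0149). A further list held genes of wall loosening and breakdown together with arabinogalactan proteins. Of its 38 tested genes 3 rose (7.89%) and 7 fell (18.4%), against 8.12% and 7.52% of all genes tested. Among these, PMEPCRA, PME31, PME1, XTH30 and BGAL10 were already counted in the wall families above. BGAL8 and GH9C2, named above, and BXL1 were among those that fell. XYL1, an alpha-xylosidase that trims xyloglucan, had 20.6, 185 and 169.6 normalized counts in T24h, against 351, 525 and 888 in C0h (log2 fold change -2.64 ± 0.72 SE, limma adjusted p = 0.0281), with T24h A far below the other T24h libraries, and AGP1, an arabinogalactan protein, had 3194, 2941 and 5746 normalized counts in T24h, against 395, 788 and 384 in C0h (log2 fold change 2.94 ± 0.71 SE, limma adjusted p = 0.0199).

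Starch is a store of glucose that plastids build and degrade. Of 23 starch genes none rose and 6 fell (26.1%, against 7.52%), with a median of -0.16. ISA1, an isoamylase that trims branches during starch synthesis, had 14.5, 13.1 and 21.9 normalized counts in T24h, against 58.8, 57 and 78.4 in C0h (log2 fold change -1.93 ± 0.31 SE, limma adjusted p = 0.0104). SS2, a starch synthase, had 16.9, 24.1 and 36.9 normalized counts in T24h, against 109, 65.2 and 70.6 in C0h (log2 fold change -1.64 ± 0.34 SE, limma adjusted p = 0.0134). GBSS1, which makes amylose, had 998, 1655 and 1077 normalized counts in T24h, against 2283, 2540 and 2639 in C0h (log2 fold change -1.03 ± 0.28 SE, limma adjusted p = 0.0274). DPE1, SS3 and LSF2 fell by 0.99 ± 0.24 SE (limma adjusted p = 0.0204), 0.77 ± 0.21 SE (limma adjusted p = 0.0299) and 1.17 ± 0.27 SE (limma adjusted p = 0.0186). The amylases AMY1 and BMY3 did not pass, at log2 fold changes of -0.20 and -0.36. Without T24h A 1 of the 6 passed, ISA1, and with equal totals 7 of the 23 fell.

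Of 17 sucrose and hexose genes 1 rose and 2 fell (5.88% and 11.8%, against 8.12% and 7.52% of all genes tested). A/N-INVC, a neutral invertase, rose (log2 fold change 0.85 ± 0.22 SE, limma adjusted p = 0.0254). Those that fell were SPS2F, a sucrose phosphate synthase, with 72.6, 145 and 118 normalized counts in T24h, against 182, 309.5 and 267 in C0h (log2 fold change -1.19 ± 0.27 SE, limma adjusted p = 0.0175), and STP7, a sugar transporter (log2 fold change -0.82 ± 0.20 SE, limma adjusted p = 0.0199). ADH1, alcohol dehydrogenase, which links acetaldehyde and ethanol in fermentation, had 25.4, 39.2 and 81.9 normalized counts in T24h, against 128, 357 and 444 in C0h (log2 fold change -2.62 ± 0.61 SE, limma adjusted p = 0.0188), with C0h A well below the other C0h libraries.

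Aquaporins conduct water across the plasma membrane (PIP) and the tonoplast (TIP). Of 9 tested 3 fell (33.3%, against 7.52%) and none rose. PIP2;8 had 10.9, 60.4 and 48.4 normalized counts in T24h, against 114, 448 and 558 in C0h (log2 fold change -3.21 ± 0.83 SE, limma adjusted p = 0.0242). GAMMA-TIP, with 5678, 3631 and 5148 normalized counts in T24h, against 8913, 10370 and 7706 in C0h, fell less in fold (log2 fold change -0.92 ± 0.21 SE, limma adjusted p = 0.0186) and kept its adjusted p without T24h A (0.0494) but not without C0h B (0.0697). TIP2;2 ran the other way without passing, with 16.9, 66.4 and 55.4 normalized counts in T24h, against 8.4, 30.6 and 2.85 in C0h (log2 fold change 1.97 ± 0.99 SE, limma adjusted p = 0.175).

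Of 24 auxin genes none rose and 3 fell (12.5%, against 7.52% of all genes tested), and with equal totals 7 fell. ABCB1, an auxin exporter, had 219, 211 and 137 normalized counts in T24h, against 470.3, 402 and 535 in C0h (log2 fold change -1.33 ± 0.33 SE, limma adjusted p = 0.0215). The others that fell were ARF6, a response factor (log2 fold change -1.04 ± 0.30 SE, limma adjusted p = 0.0334), and IAR1 (log2 fold change -0.65 ± 0.19 SE, limma adjusted p = 0.0347). Of 11 jasmonate genes 2 rose and 2 fell (18.2% each, against 8.12% and 7.52% of all genes tested). JAZ10, a repressor that jasmonate itself induces, had 150, 101 and 176 normalized counts in T24h, against 30.5, 15.3 and 25.7 in C0h (log2 fold change 2.55 ± 0.52 SE, limma adjusted p = 0.0128), and JAZ8 rose by 0.82 ± 0.21 SE (limma adjusted p = 0.0226). NINJA, given above, and LOX6, a lipoxygenase, fell, LOX6 not with the harvest as a block. Of 15 abscisic acid genes 2 rose and 1 fell (13.3% and 6.67%, against the same 8.12% and 7.52%). Both risers are receptors, PYL7 (log2 fold change 0.89 ± 0.20 SE, limma adjusted p = 0.0166) and RCAR3 (log2 fold change 0.61 ± 0.18 SE, limma adjusted p = 0.0345), and HAB1, a phosphatase that acts against the pathway, fell (log2 fold change -1.5 ± 0.47 SE, limma adjusted p = 0.0449) but not with the harvest as a block. CKX7, which degrades cytokinin, had 4260, 7759 and 3032 normalized counts in T24h, against 2092, 1972 and 1445 in C0h (log2 fold change 1.36 ± 0.29 SE, limma adjusted p = 0.0141). BAK1, a co-receptor of brassinosteroid and defence receptors, had 1163, 702 and 1012 normalized counts in T24h, against 534, 401 and 408 in C0h (log2 fold change 1.08 ± 0.25 SE, limma adjusted p = 0.0186).

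Of 11 circadian clock genes 1 rose and 1 fell (9.09% each, against 8.12% and 7.52% of all genes tested), and with equal totals 1 rose and 4 fell. ELF4 had 4727, 4170 and 2979 normalized counts in T24h, against 1883, 1994 and 1893 in C0h (log2 fold change 1.01 ± 0.24 SE, limma adjusted p = 0.0191). RVE8 had 266, 261 and 224 normalized counts in T24h, against 441, 536 and 589.6 in C0h (log2 fold change -1.05 ± 0.25 SE, limma adjusted p = 0.0201). The groups were sampled 24 h apart. The time of day is not given in the sources used here.

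Of 22 heat shock and chaperone genes 2 rose and 1 fell (9.09% and 4.55%, against 8.12% and 7.52% of all genes tested). HSP70T-2 had 1402, 244 and 669 normalized counts in T24h, against 139.7, 49.9 and 17.8 in C0h (log2 fold change 3.58 ± 1.02 SE, limma adjusted p = 0.0333), with T24h B the lowest T24h and C0h A the highest C0h library. HSFB3, a heat shock factor, rose by 1.14 ± 0.25 SE (limma adjusted p = 0.0162) and HSP89.1, a mitochondrial chaperone, fell by 1.55 ± 0.37 SE (limma adjusted p = 0.0196). Of 13 proteasome subunits 6 rose (46.2%, against 8.12% of all genes tested), with a median of 0.38. RPN8A and RPN10, of its regulatory particle, rose by 0.68 ± 0.19 SE (limma adjusted p = 0.0347) and 0.60 ± 0.18 SE (limma adjusted p = 0.0384). RPT5A, an ATPase of that particle, had 4314, 3929 and 3618 normalized counts in T24h, against 2475, 2325 and 2146 in C0h (log2 fold change 0.77 ± 0.15 SE, limma adjusted p = 0.0116). With equal totals 5 of 13 values were above 0, the median was -0.01 and none passed, as none did with quantile normalization; the direction of this list thus depends on the scaling. Of 53 vesicle tethering and fusion genes 12 rose (22.6%) and 3 fell (5.66%), against 8.12% and 7.52% of all genes tested. With equal totals 5 of these rose and 4 fell. SEC10, of the exocyst, and VPS37-1, of an endosomal sorting complex, rose by 1.34 ± 0.30 SE (limma adjusted p = 0.0164) and 0.95 ± 0.18 SE (limma adjusted p = 0.0113). RABA1B, a small GTPase, and VAMP724, a membrane fusion protein, fell by 2.15 ± 0.54 SE (limma adjusted p = 0.0228) and 1.36 ± 0.40 SE (limma adjusted p = 0.0358), as did RABE1B, a symbol that in Arabidopsis also stands for a plastid elongation factor, by 0.89 ± 0.20 SE (limma adjusted p = 0.0167). SYP61, a syntaxin of the trans-Golgi network, had 853, 594 and 740.5 normalized counts in T24h, against 335, 306 and 257 in C0h (log2 fold change 1.27 ± 0.22 SE, limma adjusted p = 0.0104). None of 7 cytosolic ribosome genes with a symbol passed, and with equal totals 4 fell.

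Of 29 senescence and cell death genes 7 rose and 4 fell (24.1% and 13.8%, against 8.12% and 7.52% of all genes tested), with a median of -0.03. With equal totals 2 rose and 4 fell, at a median of -0.38. PAD4, a lipase-like regulator of defence, and ATG18B, of autophagy, rose by 1.16 ± 0.29 SE (limma adjusted p = 0.0216) and 1.02 ± 0.30 SE (limma adjusted p = 0.0383). BETA-VPE, a vacuolar processing protease, had 61.7, 298 and 196 normalized counts in T24h, against 503, 973 and 1342 in C0h (log2 fold change -2.49 ± 0.53 SE, limma adjusted p = 0.0143). PPH, which removes the phytol chain of chlorophyll, had 391, 457 and 424 normalized counts in T24h, against 621, 840 and 922 in C0h (log2 fold change -0.89 ± 0.24 SE, limma adjusted p = 0.0274), and ACD2, a later enzyme of chlorophyll breakdown, fell by 0.92 ± 0.26 SE (limma adjusted p = 0.0306). SAG29, a sugar transporter of the SWEET family, had 2259, 553 and 1315 normalized counts in T24h, against 334, 199 and 201 in C0h (log2 fold change 2.31 ± 0.67 SE, limma adjusted p = 0.0346).

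Lists of other tissues gave these values, beside 8.12% of all genes tested that rose and 7.52% that fell. The 5 seed genes were all under the filter, with ABI3, EM1 and LEA at 0 in all 6 libraries, and summed to 6.05, 1.01 and 3.46 normalized counts in T24h A, B and C, against 2.29, 2.04 and 0.713 in C0h. The 22 genes of cuticle and epidermis summed to 8770 to 12590 in T24h and 7497 to 10160 in C0h, with 1 of 13 tested rising, LACS2, which activates fatty acids for cutin (log2 fold change 2.33 ± 0.55 SE, limma adjusted p = 0.019), and 1 falling, CER10, a reductase of very-long-chain fatty acid synthesis (log2 fold change -0.80 ± 0.22 SE, limma adjusted p = 0.0299). The 16 vascular and secondary wall genes summed to 6891, 2693 and 5684 in T24h, against 2337, 2081 and 1661 in C0h, with MYB83, NST1 and VND7 at 0 in all 6 libraries. Most of the T24h A and T24h C sums came from 1 gene, IRX3, given below. Of the 6 tested, 3 lay above 0 and 3 below, at a median log2 fold change of 0.003. Of 6 tested, XCP1, a protease of xylem cells, rose, with 33.9, 108 and 112 normalized counts in T24h, against 13, 4.07 and 5.7 in C0h (log2 fold change 3.27 ± 0.83 SE, limma adjusted p = 0.0229). IRX3, a cellulose synthase of secondary walls, had 5451, 748 and 4023 normalized counts in T24h, against 489, 92.7 and 20.0 in C0h and did not pass (log2 fold change 4.69 ± 1.56 SE, limma adjusted p = 0.0554). The part of peel or vascular tissue in the results was not tested. The 30 photosynthesis genes summed to 2265 to 3103 in T24h and 2551 to 4658 in C0h. Of 22 tested, PSAN of photosystem I (log2 fold change -2.83 ± 0.78 SE, limma adjusted p = 0.0297) and PSBO1 of photosystem II (log2 fold change -2.38 ± 0.72 SE, limma adjusted p = 0.0415) fell, PSBO1 not with the harvest as a block, and LHCB4.3 rose as given above. With equal totals 6 of the 22 fell.

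The comparisons of T12h and of C24h with C0h share the C0h libraries with that of T24h, so their values are set side by side only. T12h fruit were sampled at the end of the gas treatment. PLP9, of the patatin-like lipases, had 275, 20.9 and 25.5 in T12h A, B and C and 2703, 2824 and 1731 in T24h, against 261, 191 and 44.9 in C0h (log2 fold change 4.16 ± 1.11 SE, limma adjusted p = 0.0267). In T12h B and C, PLP9 stood below its C0h range, and in all T24h libraries far above it. EMB3147 had 1006, 962 and 876 in T12h and ACS12 had 448, 356 and 376, in both cases between the C0h and T24h values. For AGL14, T12h held 414, 227 and 639.7 and for TLP-3 26140, 24940 and 24130, within or above the range of the T24h libraries. HSP70T-2 had 1809, 2186 and 2271 in T12h, above all its T24h values.

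Untreated fruit stored for 24 h differed between harvests. In C24h A and C, PKP-BETA1 had 339.8 and 94.6 and TPS04 3787 and 1052 normalized counts, against 1028 and 22760 in C24h B. The values of C24h B lay within the range of the T24h libraries, 2308, 1925 and 991 for PKP-BETA1 and 36610, 19040 and 22940 for TPS04. PPC2 had 1017 in C24h B, against 6575 and 4348 in C24h A and C. C24h B enters the comparison of T24h with C0h by the shared estimate of the spread and by the filter on the mean. Without it 1131 genes were called between T24h and C0h, with all 845 still at the adjusted p.

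**Figure D5:**
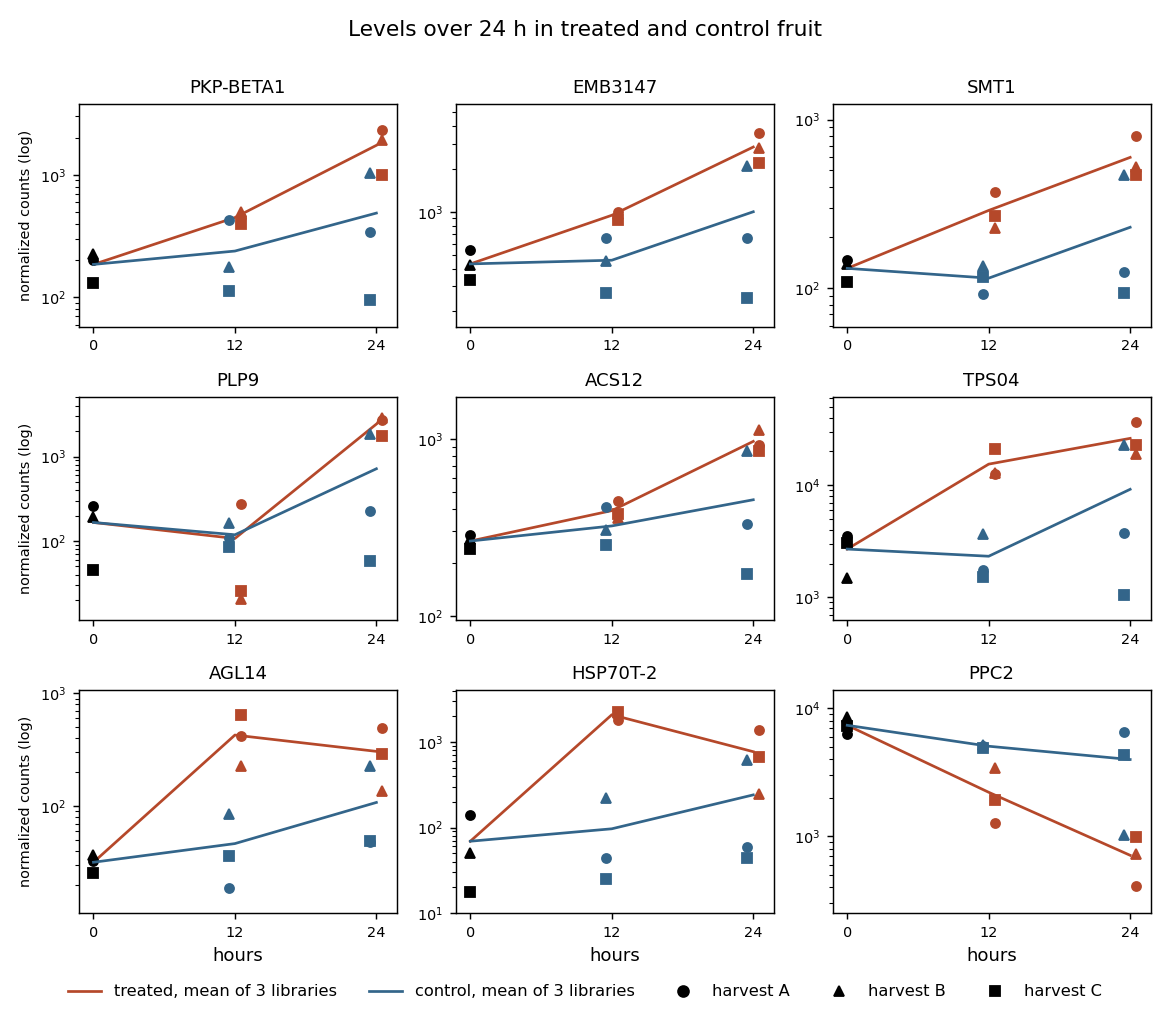
Normalized counts (log y axis) of 9 genes at 0, 12 and 24 h (x axis) in treated fruit (C0h, T12h, T24h) and control fruit (C0h, C12h, C24h); symbols are libraries, lines join the means of 3. AGL14 and HSP70T-2 have their highest treated mean at 12 h and PLP9 at 24 h, and the control triangle at 24 h, C24h B, stands apart from the other control libraries in all 9 panels.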

How the data were processed

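RNA of papaya pulp was sequenced as paired-end reads from stranded mRNA libraries, 15 in 5 groups of 3. The authors filtered reads with SeqyClean, checked them with FastQC, aligned them to the Papaya1.0 genome with STAR and kept uniquely aligned reads; the counting tool is not given in the sources used here. The deposited values are a signal, namely counts per gene divided by a DESeq2 size factor per library. No columns of the authors' own comparisons were used. In every library the values were whole multiples of 1 step (100% within a tolerance of 0.01), which gave the reads per library and per gene. The steps of T12h B and T24h B, 0.994 and 1.006, lie so close to 1 that they are hard to tell from rounding, and their reads are less certain.

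Genes with a mean of at least 5 over the 15 libraries (15270 of 20332, of which 1846 were at 0 everywhere) were tested on log2(value + 1), with a pseudocount of 1, by limma 3.58.1 (R 4.3.3; trended variance) with all 5 groups in the fit. The contrast was T24h minus C0h, and p-values were adjusted by Benjamini-Hochberg over all genes tested. Genes were called where the adjusted p did not exceed 0.05 and the log2 fold change lay beyond 1.5 in either direction. Replicates were pools from separate harvests. The labels pair libraries by harvest, but deviations from group means correlated no more within a harvest (median r = -0.0351 over 30 pairs of libraries) than between harvests (-0.0187 over 60); the harvest as a block was an alternative. On simulated data 22.4%, 70.2% and 97.0% of genes changed by 1, 2 and 3 on the log2 scale were recovered (67, 67 and 66 genes). There were 7 false calls among the unchanged genes of the 15270 simulated. Each gene was drawn independently around 1 mean, without shifts shared by a library or a harvest, so these figures do not cover such shifts.

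Symbols came from RefSeq tables of another assembly (ASM5485532v1): 17406 of 19817 identifiers matched and 3658 tested genes had a symbol. Ambiguous symbols were left out of the lists. Of the study's cell wall genes, 69 were paired by gene number and 68 tested. The genes named were, among calls without overlap between the groups, the 10 rising and 10 falling with a symbol and the 3 of each among all genes with the largest fold, the 3 of each with the lowest adjusted p and the 5 of each with the largest difference of means; then up to 3 rising and 3 falling genes per list, and every paired polygalacturonase, pectate lyase, pectin methylesterase and rhamnogalacturonate lyase. Other list members were added after their values were seen. The members and lists were chosen with earlier results of these data known. Alternatives were other scalings, pseudocounts and filters, the harvest block, library weights, other sets of libraries, edgeR 4.0.16 and DESeq2 1.42.0 on whole reads, and, chosen after seeing the data, equal library totals and edgeR on the 13 libraries whose step was clearly apart from 1.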

Additional observations from a re-analysis of the deposited data

How the results depend on the processing

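In 23 alternatives none of the 845 calls changed sign. The number of genes called was 542 (303 higher and 239 lower) when the mean had to reach 50, 547 (246 higher and 301 lower) with edgeR on 13 libraries, chosen after seeing the data, 792 with the harvest as replicate block, and 0 to 1131 when libraries were left out (0 to 551 higher, 0 to 580 lower), the highest without C24h B. It was 866 with edgeR and 1102 with DESeq2 on the whole reads of all libraries, 851 with TMM scaling, 695 with quantile normalization, and 836 and 686 with pseudocounts of 0.5 and 5. With equal library totals, also chosen after seeing the data, 278 were called higher and 989 lower in T24h. Genes at the adjusted p, 1240 higher and 1148 lower, numbered 2187 and 2167 with library quality weights, 615 and 2875 with equal library totals, and 568 and 510 with edgeR on 13 libraries, and 1868 were higher with DESeq2. When libraries were left out these ran over 0 to 2085 higher and 0 to 2013 lower. Genes of the lists at the adjusted p numbered 160, against 256 with library quality weights, 76 with edgeR on 13 libraries, 145 with the replicate block, and 0 to 235 when libraries were left out. Of 148 named genes at the adjusted p, 73 passed with edgeR on 13 libraries, 133 with the replicate block, and 0 to 148 when libraries were left out. With 1 library of a group left out, the remaining pair was assumed to vary like the other groups. Counting depth limits genes with few reads, for which ratios or bounds are given.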

Other observations

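Of 29 cell cycle genes 2 fell (6.90%, against 7.52% of all genes tested) and none rose. CYCD1;1, a D-type cyclin that promotes entry into the cycle in Arabidopsis, had 2.42, 2.01 and 3.46 normalized counts in T24h, against 14.5, 16.3 and 22.1 in C0h (log2 fold change -2.36 ± 0.62 SE, limma adjusted p = 0.0259). RBR1, the retinoblastoma protein that restrains the cycle, had 443, 526 and 436 normalized counts in T24h, against 632, 858 and 983 in C0h (log2 fold change -0.80 ± 0.25 SE, limma adjusted p = 0.0473) and did not pass with the harvest as a block. Of 12 phenylpropanoid and flavonoid genes 1 rose and 2 fell (8.33% and 16.7%, against 8.12% and 7.52%). CYP98A3, a hydroxylase on the way to lignin, had 2186, 1501 and 1609 normalized counts in T24h, against 986, 887 and 834 in C0h (log2 fold change 0.95 ± 0.20 SE, limma adjusted p = 0.0137). CCR1, a reductase of the lignin branch, had 16.9, 24.1 and 35.8 normalized counts in T24h, against 64.1, 53 and 49.9 in C0h (log2 fold change -1.14 ± 0.36 SE, limma adjusted p = 0.046), and TT5, a chalcone isomerase of flavonoids, had 62.9, 65.4 and 112 normalized counts in T24h, against 134, 129 and 136 in C0h (log2 fold change -0.77 ± 0.23 SE, limma adjusted p = 0.0414); neither passed with the harvest as a block, with quantile normalization or with T24h and C0h alone in the fit. Of 7 gibberellin genes 1 fell (14.3%), SPY, a repressor of gibberellin responses, with 14.5, 42.3 and 30.0 normalized counts in T24h, against 64.9, 47.9 and 109 in C0h (log2 fold change -1.36 ± 0.42 SE, limma adjusted p = 0.0446), which did not pass under these settings either.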
